A study of Mus musculus with 12 samples.

Results

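Iron traffic in doxorubicin-treated heart-derived cells was followed through 10 genes of iron uptake, storage, export, regulation and heme breakdown: Tfrc, Slc11a2, Fth1, Ftl1, Ncoa4, Slc40a1, Ireb2, Aco1, Fbxl5 and Hmox1. They were taken by gene name from the deposited expression table of 54345 genes, and all 10 were among the 25044 genes that had FPKM (fragments per kilobase of gene, scaled by library size) above 0 in at least 3 libraries and were tested. Messenger RNA was sequenced from H9c2(2-1) cells, a line labelled as wild-type myoblasts, in 12 libraries at 6 h. The 4 groups of 3 libraries were untreated cells (Unt), cells given doxorubicin (DOX), cells given doxorubicin and dexrazoxane (D_DXZ), and cells given doxorubicin and MgHCF (D_MgHCF). Doxorubicin is an anthracycline chemotherapy drug that damages heart muscle, dexrazoxane is the cardioprotective drug used against that damage in the clinic, and MgHCF is a magnesium hexacyanoferrate nanocatalyst of the Prussian blue family that takes up ferrous ions in exchange for magnesium. The doses in the sequenced cells are not given in the sources used here, both protective agents were measured only together with DOX, and the labels do not say that the 3 libraries of a group came from separate cultures, so p-values measure the spread between these libraries. The study describes H9c2 as rat cardiomyoblasts, while the labels give mouse and the deposited table holds mouse genes, and whether this moved any value was not tested.

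Cells take up transferrin-bound iron through the transferrin receptor, keep it in ferritin shells built of heavy and light chains, and release it through ferroportin. A pair of iron regulatory proteins, IRP1 (Aco1) and IRP2 (Ireb2), read the iron supply: in iron-poor cells they bind hairpins called iron-responsive elements (IREs), which protects the receptor transcript from decay and blocks translation of ferritin and ferroportin transcripts. Because the ferritin and ferroportin hairpins act on translation, transcript levels of these genes alone do not give protein levels.

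The hairpins that define this regulation are shown because they set Tfrc, with IREs after the coding part, apart from Fth1, Ftl1 and Slc40a1, with an IRE before it. The transcripts of all members in GENCODE M21 (GRCm38) were searched on the sense strand for CNNNNNCAGTGN followed by bases that pair with all 5 bases before the loop and with at least 3 of the 5 bases below the bulged C. Matches were found in 4 of the 10 members and in 140 of all 55450 genes (0.252%). The 6 loop bases are in capitals, and all sites are 27 bases of the mouse reference written 5′ to 3′ on the transcript strand. Tfrc held 4 sites in the 3′ UTR, in exon 19 of 19.
Tfrc, chr16:32631220-32631246, plus strand: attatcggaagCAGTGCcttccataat
Tfrc, chr16:32631599-32631625, plus strand: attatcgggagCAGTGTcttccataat
Tfrc, chr16:32631664-32631690, plus strand: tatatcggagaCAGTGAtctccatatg
Tfrc, chr16:32631711-32631737, plus strand: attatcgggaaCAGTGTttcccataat
Fth1, Ftl1 and Slc40a1 each held 1 site in the 5′ UTR, in exon 1.
Fth1, chr19:9982733-9982759, plus strand: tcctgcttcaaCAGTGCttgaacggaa
Ftl1, chr7:45459780-45459806, minus strand: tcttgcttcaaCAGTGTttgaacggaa
Slc40a1, chr1:45925466-45925492, minus strand: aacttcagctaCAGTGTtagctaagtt
The other 6 members, Slc11a2 among them, had no match to this pattern, which says only that these letters were not found. The bearers of the 5′ hairpin did not move as a group: in DOX the ferritin transcripts rose while that of Slc40a1 fell.

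Reads on genes, recovered from the FPKM steps, ranged from 16626514 to 19365119 per library. Replicates correlated at Pearson r of at least 0.9895 across genes on the log2(FPKM + 1) scale in Unt, DOX and D_DXZ, and at 0.942 to 0.984 in D_MgHCF, where replicate 3 was the farthest from the others; the comparisons of D_MgHCF were therefore repeated without it. Mitochondrially encoded genes took from 1.19 to 1.42% of reads in the Unt libraries. The DOX libraries had 2.73 to 2.89%, the D_DXZ libraries 2.73 to 3.27% and the D_MgHCF libraries 1.76 to 3.16%, and their part in the results was not tested. The library size implied by the deposited FPKM was 0.647 to 0.892 times the reads on genes for DOX and D_DXZ and 1.26 to 1.43 times for Unt and D_MgHCF. This raises FPKM of DOX and D_DXZ relative to values per read, so directions were checked under other scalings. Myoblast markers were nearly absent: the regulators Myod1, Myf5 and Myog were at 0 in all Unt libraries, and the sum of the 10 muscle markers ranged from 1.81 to 2.00 FPKM in the Unt libraries, 2.18 to 3.12 under DOX, 2.83 to 3.22 under D_DXZ and 3.31 to 6.09 under D_MgHCF. Of the 6 fibroblast markers, Thy1 and Lum were at 0 in Unt and the list summed to 45.1 to 51.1, 97.4 to 122, 76.7 to 103 and 22.0 to 39.6 FPKM in the same order, almost all of it collagen. The 5 leukocyte markers summed to between 2.23 and 2.83 FPKM for Unt, 6.14 and 7.04 for DOX, 5.71 and 7.57 for D_DXZ, and 4.88 and 10.3 for D_MgHCF, through Cd68 and Cd14, with Ptprc at or near 0. Cardiomyocyte markers summed to at most 0.36 and endothelial markers to at most 1.08 FPKM in any library. The part of these marker lists in the results was not tested. In bulk RNA, fewer cells of a kind and less RNA per cell cannot be told apart.

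DOX changed most of the iron members after 6 h. Limma called 9 of the 10 members against Unt at an adjusted p under 0.05, 5 higher and 4 lower, beside 38.4% of all genes tested called in either direction, 18.6% higher and 19.9% lower. Among the 12434 genes with at least 1 FPKM in at least 3 libraries, fitted on their own, 9079 were called. Calls were thus common among expressed genes, and the member counts are to be read beside this share too. Those higher were Tfrc, Fth1, Ftl1, Aco1 and Ncoa4, and those lower were Slc40a1, Ireb2, Fbxl5 and Hmox1. The median log2 fold change of the members was 0.44 on the log2(FPKM + 1) scale, beside 0.00 over all genes tested. D_DXZ kept 8 of these 9 calls against Unt, 5 higher and 3 lower, beside 33.9% of all genes (15.9% higher, 18.0% lower); Slc40a1 did not pass there. D_MgHCF differed from Unt in 3 members, 2 higher (Ftl1 and Ncoa4) and 1 lower (Fbxl5), beside 40.1% of all genes called (24.3% higher, 15.7% lower). Without D_MgHCF replicate 3 this count was 6, beside 52.1% of all genes. The smaller number thus depended on that library, and it also depended on the scaling. With all libraries kept, 3 members were higher and 2 lower under TPM, and 4 were higher and 1 lower under summed reads. Under voom and under quantile normalization 3 were higher and 1 lower.

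**Figure D1:**
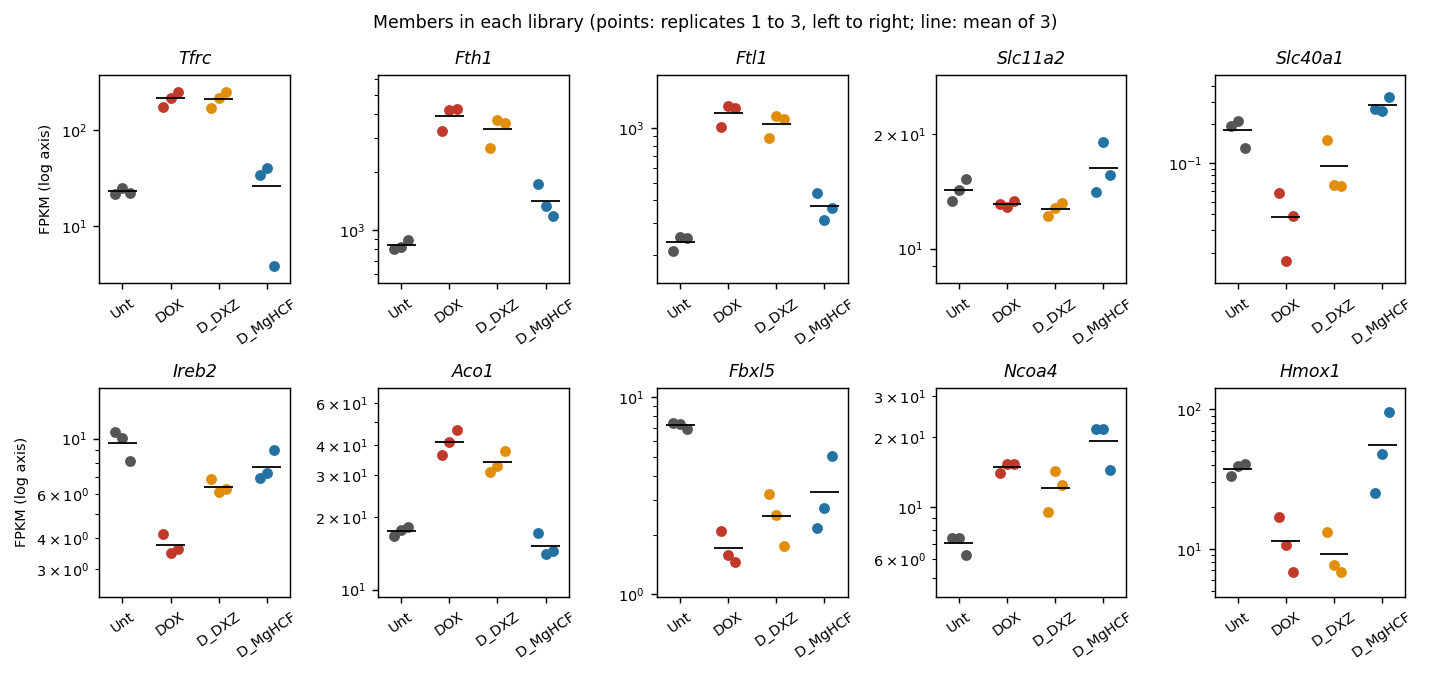
FPKM on a log axis of the 10 members in each of the 12 libraries, with points for replicates 1 to 3 and a line for the mean of 3. Tfrc, Fth1 and Ftl1 were higher in all DOX and D_DXZ libraries than in any Unt or D_MgHCF library, and D_MgHCF replicate 3 fell to 3.87 FPKM of Tfrc.

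Tfrc, the transferrin receptor that brings iron into the cell, had the largest fold change of the members in DOX at the deposited scaling. Under voom Tfrc also had the largest (3.19 beside −1.78 for Hmox1), but under TPM, summed reads and quantile normalization the fall of Hmox1 was larger in size. The log2 fold change of Hmox1 was −2.99 under TPM beside 1.8 for Tfrc. The 2 values were −2.6 and 2.21 under summed reads, and −2.22 and 2.03 under quantile normalization. Fbxl5 (−2.65) and Ireb2 (−2.32) also exceeded Tfrc in size under TPM, as did Fbxl5 (−2.33) under summed reads. The FPKM of Tfrc was 21.6, 25.2 and 22.2 in Unt and 172, 216 and 249 in DOX. Every DOX library was above every Unt library, and the mean was 9.23 times that of Unt (log2 fold change 3.14 ± 0.64, SE; adjusted p = 0.00252). Only 0.0399% of all genes tested had a larger log2 fold change. In D_DXZ the values were 169, 216 and 245, which overlapped those of DOX (log2 fold change −0.02, 95% interval −1.45 to 1.41). In D_MgHCF they were 34.2, 40.5 and 3.87, all below every DOX library (log2 fold change −3.45 ± 0.64; adjusted p = 0.00122). The 3 D_MgHCF libraries did not share 1 level: replicates 1 and 2 were above every Unt library, whereas replicate 3, with 587 reads, was below them all. Against Unt the log2 fold change in D_MgHCF was −0.32 (adjusted p = 0.731) with replicate 3 and 0.68 (adjusted p = 0.0132) without it, so that library turned its direction. Against DOX it was −2.46 without that library (adjusted p = 6.26e-06). The 4 groups share 1 estimate of the spread, so the SE of Tfrc was 0.643 in every comparison, also those without D_MgHCF. Leaving out D_MgHCF replicate 3 brought it to 0.187 in the comparisons with D_MgHCF. The SE and intervals of Tfrc thus carry the spread of that library.

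Slc11a2 encodes the divalent metal transporter DMT1, which moves ferrous iron across membranes, including out of endosomes after uptake by the receptor. It was the only member that was not called in DOX, with 13.3, 14.2 and 15.2 FPKM in Unt and 13.1, 12.8 and 13.3 in DOX (log2 fold change −0.12, 95% interval −0.34 to 0.11, adjusted p = 0.481). The lowest Unt and the highest DOX library were both at 13.3. Rescaled to TPM, Slc11a2 was lower in DOX (log2 fold change −1.39, adjusted p = 4.63e-05). In D_MgHCF its FPKM was 14.1, 19.1 and 15.6, all above DOX (log2 fold change 0.28, adjusted p = 0.0413). This call was lost without D_MgHCF replicate 2 (log2 fold change 0.17, adjusted p = 0.129) and in most other alternatives.

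Ferritin transcripts were the most abundant of the members and rose in DOX as well. Fth1, the heavy chain that oxidizes iron for storage, had 802, 820 and 890 FPKM in Unt and 3259, 4183 and 4241 in DOX. Ftl1, the light chain that helps to nucleate the iron core, had 209, 251 and 246 FPKM in Unt and 1015, 1319 and 1293 in DOX. Neither gene's DOX libraries overlapped Unt, and the means were 4.65 and 5.14 times those of Unt. The log2 fold change of Fth1 was 2.21 ± 0.31 (adjusted p = 0.000221) and that of Ftl1 was 2.35 ± 0.20 (adjusted p = 1.41e-05). In D_DXZ, Fth1 had 2673, 3689 and 3582 FPKM and Ftl1 884, 1163 and 1125, overlapping DOX in both cases.

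In D_MgHCF both ferritin transcripts lay between Unt and DOX. Fth1 had 1735, 1344 and 1191 FPKM and Ftl1 438, 310 and 363. All these values were above every Unt library and below every DOX library of the same gene. Against DOX, Fth1 fell by 1.46 (adjusted p = 0.00281) and Ftl1 by 1.71 (adjusted p = 5.91e-05) on the log2 scale, calls that were lost under quantile normalization (0.13 and −0.08). Without D_MgHCF replicate 3 these log2 fold changes were −1.34 and −1.70 (adjusted p = 0.00547 and 0.00012). Against Unt, Ftl1 was higher (log2 fold change 0.64, adjusted p = 0.0270), a call lost when any Unt library or D_MgHCF replicate 1 was left out. Fth1 had a log2 fold change of 0.75 (adjusted p = 0.0794), and 0.87 with an adjusted p of 0.0478 without D_MgHCF replicate 3. With all libraries, Fth1 was called higher than Unt under TPM (adjusted p = 0.000291), summed reads (0.00205), voom (0.00238) and quantile normalization (0.0281). Ftl1 shares reads with near-identical copies: Ftl1-ps1 aligned at 99.6% identity over 910 bases and had 9.39 to 11.4 FPKM in Unt and 59.8 to 65.3 in DOX, so how Ftl1 reads were divided is uncertain. For Fth1 a single copy was found, at 91.2% identity, with at most 0.386 FPKM.

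Ncoa4 encodes the cargo receptor that delivers ferritin to autophagosomes for iron release. Its FPKM was 7.42, 7.40 and 6.23 in Unt, 14.0, 15.3 and 15.4 in DOX, and 21.6, 21.7 and 14.4 in D_MgHCF. DOX and D_MgHCF libraries were all above Unt, whereas D_MgHCF replicate 3 lay within the DOX range. The log2 fold change was 0.99 ± 0.17 in DOX (adjusted p = 0.000871) and 1.31 ± 0.17 in D_MgHCF (adjusted p = 0.000305) against Unt. Between D_MgHCF and DOX it was 0.33 (adjusted p = 0.138), and 0.51 with an adjusted p of 0.0117 without replicate 3. It was called under 3 of the 5 scalings, with 1.47 under TPM (adjusted p = 1.09e-05), 1.24 under summed reads (adjusted p = 6.22e-05) and 0.70 under quantile normalization (adjusted p = 0.0190). D_DXZ had 9.57, 14.4 and 12.5 FPKM, above Unt (log2 fold change 0.70, adjusted p = 0.00869).

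Slc40a1, ferroportin, the exporter of iron from cells, was by far the lowest member. It had 44, 46 and 29 reads in Unt, 8, 2 and 4 in DOX, 22, 8 and 8 in D_DXZ and 50, 58 and 72 in D_MgHCF. The DOX libraries were below and the D_MgHCF libraries above all Unt libraries. As summed reads at the deposited scaling, Slc40a1 was 4.57-fold lower in DOX than in Unt (exact 95% interval 2.62 to 8.62) and 7.17-fold higher in D_MgHCF than in DOX (4.16 to 13.4). These intervals cover counting error only, and the exact binomial split of summed reads does not include the spread between libraries. On the log2(FPKM + 1) scale, which compresses a gene below 1 FPKM, the log2 fold changes were −0.18 (adjusted p = 0.00641) and 0.30 (adjusted p = 0.000244). The second was 0.28 (adjusted p = 0.000485) without D_MgHCF replicate 3, and its call was lost under quantile normalization (0.13, adjusted p = 0.152). In D_DXZ, Slc40a1 was 1.81-fold lower than in Unt by reads (1.25 to 2.69), with a limma adjusted p of 0.0908, and replicate 1, at 0.151 FPKM, lay within the Unt range of 0.132 to 0.213 FPKM. Against DOX, D_DXZ was 2.52-fold higher by reads (1.34 to 5.04, counting error only), and the FPKM of the 2 groups did not overlap. The limma log2 fold change there was 0.08 (adjusted p = 0.634).

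The regulators of the IRE system moved in opposite directions in DOX under every scaling but TPM. Under TPM the log2 fold change of Aco1 was −0.13 (adjusted p = 0.244) beside −2.32 for Ireb2. Ireb2, IRP2, had 10.6, 10.0 and 8.17 FPKM in Unt, 4.14, 3.50 and 3.63 in DOX, 6.89, 6.11 and 6.29 in D_DXZ and 6.95, 7.26 and 8.96 in D_MgHCF. It was lowest in DOX, with no overlap between DOX and any other group. It fell by 1.15 ± 0.12 on the log2 scale in DOX (adjusted p = 4e-05), and D_MgHCF was higher than DOX (log2 fold change 0.87, adjusted p = 0.000197; 0.77 and 0.000278 without replicate 3). D_DXZ was also above DOX in every library, with a log2 fold change of 0.64 ± 0.12 (95% interval 0.37 to 0.92), but it did not pass the adjustment over all genes (adjusted p = 0.190).

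Aco1, IRP1, an aconitase when it carries an iron-sulfur cluster and an RNA-binding protein when it does not, had 16.7, 17.6 and 18.1 FPKM in Unt and 36.5, 41.3 and 46.2 in DOX. The DOX libraries were all above Unt, and the mean was 2.36 times that of Unt (log2 fold change 1.19 ± 0.11, adjusted p = 2.24e-05). D_MgHCF had 17.3, 14.0 and 14.5 FPKM, all below DOX (log2 fold change −1.38, adjusted p = 8.56e-06; −1.35 and 1.67e-05 without replicate 3) and partly within the Unt range (log2 fold change against Unt −0.19, adjusted p = 0.206). D_DXZ had 31.0, 32.8 and 37.8 FPKM, above Unt in every library and overlapping DOX.

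Fbxl5 encodes the iron-sensing ubiquitin ligase subunit that marks IRP2 for degradation when iron is plentiful. It fell in DOX from 7.45, 7.35 and 6.88 to 2.10, 1.59 and 1.46 FPKM, without overlap (log2 fold change −1.60 ± 0.23, adjusted p = 0.000273). In D_MgHCF it had 2.18, 2.76 and 5.03 FPKM, below Unt in every library (log2 fold change −0.98, adjusted p = 0.00809). Against DOX the log2 fold change was 0.62 (adjusted p = 0.0467), and 0.35 with an adjusted p of 0.122 without replicate 3. Ireb2 and Fbxl5, a target and its ligase, were thus both lower in DOX at the transcript level.

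Hmox1, the inducible heme oxygenase that frees iron from heme, fell in DOX. It had 33.2, 39.0 and 40.2 FPKM in Unt, 16.7, 10.6 and 6.81 in DOX, and 13.2, 7.63 and 6.84 in D_DXZ. The Unt libraries were above all of these, and the log2 fold change in DOX was −1.71 ± 0.44 (adjusted p = 0.0102). In D_MgHCF its values spread from 24.9 over 47.6 to 94.8 FPKM, with replicate 3, the library lowest in Tfrc, the highest in Hmox1. They were all above DOX (log2 fold change 2.08 ± 0.44, adjusted p = 0.00288; 1.60 and 0.00522 without replicate 3), and the Unt range fell inside theirs (log2 fold change against Unt 0.37, 95% interval −0.62 to 1.35; the value was −0.11 without replicate 3).

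**Figure D2:**
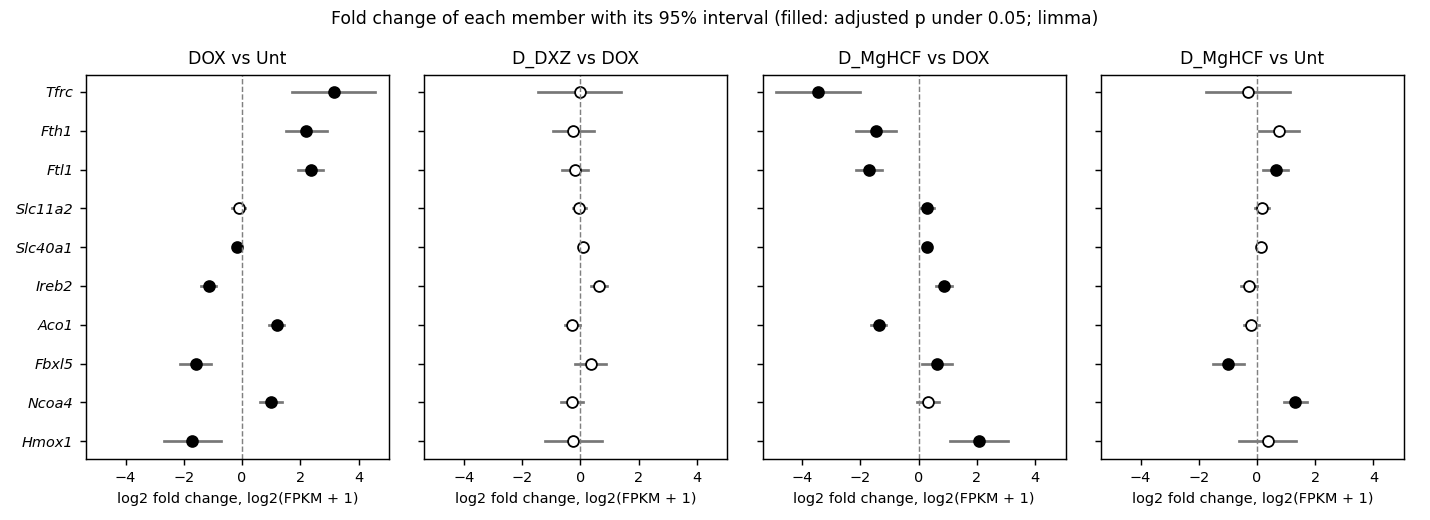
Log2 fold change of each member on the log2(FPKM + 1) scale in 4 comparisons, with its 95% interval as a line and a filled point where the limma adjusted p was under 0.05. There are 9 filled points for DOX against Unt, none for D_DXZ against DOX, 9 for D_MgHCF against DOX and 3 for D_MgHCF against Unt.

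Which iron genes differed from their DOX levels under each agent was read from the comparisons with DOX, which share the DOX libraries. For D_DXZ against DOX, limma called 0 of the 10 members and 0.0% of all genes tested in either direction (0.0% higher and 0.0% lower). At an unadjusted p under 0.05 there were 2 members, Ireb2 and Aco1, and 2388 genes, and voom on the recovered reads also called 0 members. The intervals do not show equality: that of Tfrc reached from −1.45 to 1.41 and that of Hmox1 from −1.23 to 0.74 on the log2 scale, whereas that of Slc11a2 was −0.27 to 0.19. They rest on a spread shared by all 4 groups, so D_MgHCF replicate 3 enters their width although D_MgHCF is not compared here. For D_MgHCF against DOX, 9 members were called, 5 higher and 4 lower, beside 51.5% of all genes (31.4% higher, 20.1% lower). In the fit of genes with at least 1 FPKM in at least 3 libraries, 9339 of 12434 were called. Those lower were Tfrc, Fth1, Ftl1 and Aco1, and those higher were Slc11a2, Slc40a1, Ireb2, Fbxl5 and Hmox1. Without D_MgHCF replicate 3 the count was also 9, with Ncoa4 called and Fbxl5 not, beside 59.2% of all genes. Between D_MgHCF and D_DXZ, 8 members were called, 4 in each direction, beside 48.4% of all genes (29.4% higher, 19.0% lower), and Ireb2 and Fbxl5 did not pass; without D_MgHCF replicate 3 the same 8 were called, beside 56.5%. Tfrc fell by 3.44 and Hmox1 was higher by 2.32 in D_MgHCF relative to D_DXZ on the log2 scale (adjusted p = 0.00144 and 0.00162), and without replicate 3 these values were −2.45 and 1.85.

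Ratios of 2 members within a library were compared as log2 of the FPKM ratio with a pseudocount of 0.1 by a two-sided exact permutation test, which cannot give less than p = 0.1 with 3 libraries against 3. Tfrc over Slc40a1, uptake over export, was 6.21, 6.33 and 6.59 in Unt and 10.1, 10.9 and 10.8 in DOX. The groups did not overlap, and the difference was 4.21 (exact p = 0.1), although the denominator rests on 2 to 46 reads per library. Slc40a1 lies near or below the pseudocount, so this ratio depends on it and on the library's scaling, and without a pseudocount the difference was 5.57. D_MgHCF had 6.56, 6.85 and 3.22, a difference from DOX of −5.04 (exact p = 0.1), which was −3.88 without replicate 3 and −6.63 without a pseudocount. Ireb2 over Aco1, IRP2 over IRP1, was −0.64, −0.81 and −1.14 in Unt and −3.11, −3.52 and −3.63 in DOX. It was −2.15, −2.41 and −2.57 in D_DXZ and −1.30, −0.94 and −0.68 in D_MgHCF, so that the 3 treated groups did not overlap each other. The difference from DOX was 1.05 for D_DXZ and 2.45 for D_MgHCF (exact p = 0.1 for each).

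Ncoa4 over Fth1, the ferritin receptor over its cargo, was −6.74, −6.77 and −7.13 in Unt, −7.86, −8.09 and −8.10 in DOX, and −6.32, −5.95 and −6.36 in D_MgHCF. DOX lay below Unt and D_MgHCF above it, with differences of −1.13 between DOX and Unt and 1.80 between D_MgHCF and DOX (exact p = 0.1 for each). The ratio of the ferritin chains, Fth1 over Ftl1, differed by −0.15 between DOX and Unt (exact p = 0.2), by −0.04 between D_DXZ and DOX (exact p = 0.3) and by 0.25 between D_MgHCF and DOX (exact p = 0.1). For D_DXZ against DOX, Tfrc over Slc40a1 differed by −0.50 (−1.39 without a pseudocount, exact p = 0.3 for each) and Ncoa4 over Fth1 by −0.07 (exact p = 0.5). In all, 12 such differences were tested, and none can pass an adjustment with 3 libraries a group.

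**Figure D3:**
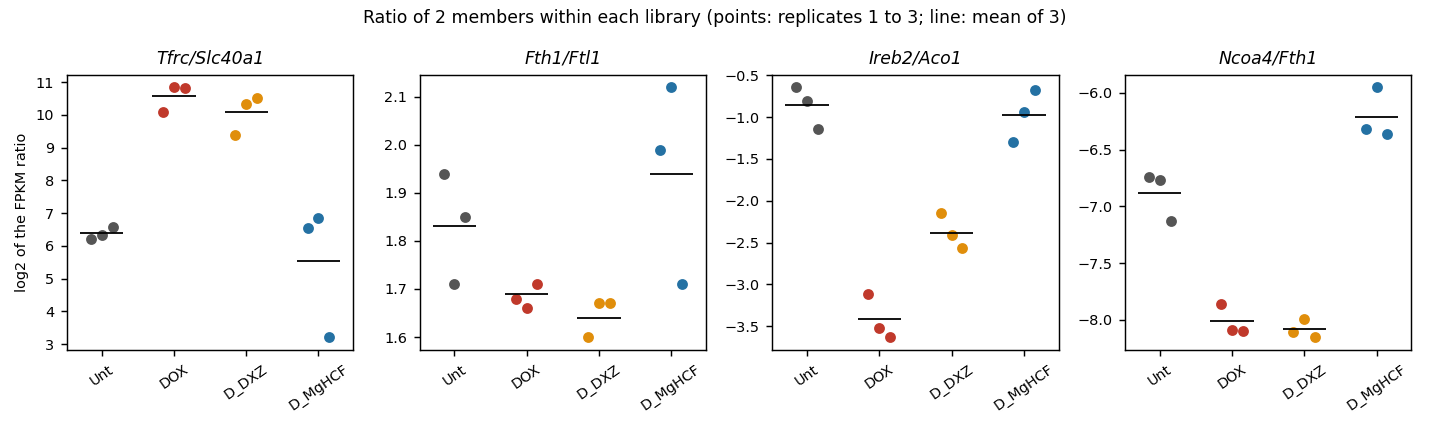
Log2 of the FPKM ratio of 2 members within each library, with 0.1 FPKM added to both, with points for replicates 1 to 3 and a line for the mean of 3. Ireb2/Aco1 steps from about −3.42 in DOX to −2.38 in D_DXZ and −0.98 in D_MgHCF, and D_MgHCF replicate 3 is alone at 3.22 in Tfrc/Slc40a1.

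The direction of some members in DOX depended on how the libraries were scaled. Rescaling to TPM moved the median of expressed genes (mean FPKM of at least 1) to −1.03 on the log2 scale for DOX against Unt, and scaling to summed reads moved it to −0.70, from 0.05 with the deposited scaling. Tfrc, Fth1 and Ftl1 were higher in DOX under the deposited, voom, summed-read and TPM scalings, with log2 fold changes of 1.80, 0.84 and 0.99 under TPM, and were 2.83, 1.87 and 2.02 above the shifted median there. Under quantile normalization they were 2.03 (adjusted p = 0.0610), 0.22 (adjusted p = 0.149) and 0.52 (adjusted p = 0.0193). Aco1 and Ncoa4 turned to −0.13 and −0.26 under TPM, neither called, which is 0.91 and 0.78 above that median. Ireb2, Fbxl5, Hmox1 and Slc40a1 were lower in DOX and called under all 5 scalings; relative to the shifted median, Slc40a1 was 0.68 above it on the log2(TPM + 1) scale, which holds its low values near 0, and its voom log2 fold change was −2.19. For D_MgHCF against DOX, Tfrc fell and Ireb2 and Hmox1 rose under all 5, while the log2 fold change of Fth1 was −0.24 under TPM and 0.13 (adjusted p = 0.403) under quantile normalization.

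**Figure D4:**
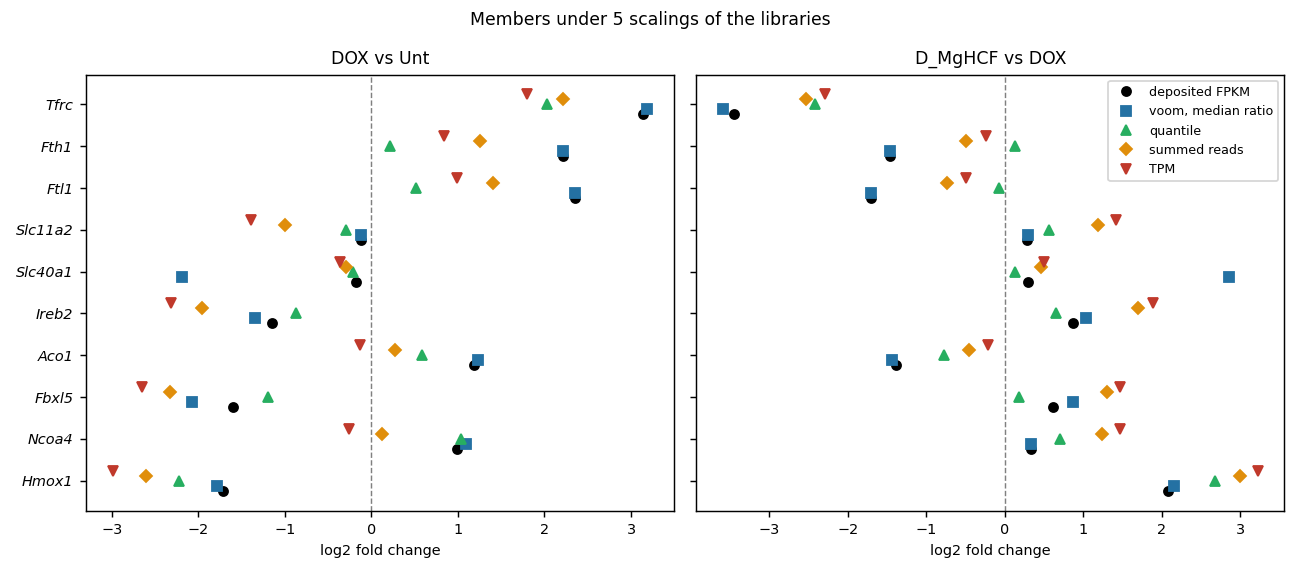
Log2 fold change of each member for DOX against Unt (left) and D_MgHCF against DOX (right) under 5 scalings of the libraries, 1 symbol per scaling. The symbols of Ireb2, Fbxl5 and Hmox1 stay left of 0 in DOX under all 5, whereas those of Aco1 and Ncoa4 cross 0 under TPM, and the summed-read scaling leaves them at 0.27 and 0.12.

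The wider iron system was read from 93 other genes in 6 lists, of which 88 were tested; transferrin itself is not analysed here. In DOX, 42 were higher and 17 lower than in Unt, with a median log2 fold change of 0.32 beside 0.00 over all genes tested, but under summed reads 13 were higher and 36 lower and under TPM 3 and 48. The calls of all genes shifted with these scalings too, to 8.29% higher and 33.2% lower under summed reads and 4.39% and 40.1% under TPM. In D_MgHCF against DOX, 19 were higher and 35 lower, which turned to 47 and 18 under summed reads and 52 and 9 under TPM, where all genes had 49.5% higher and 9.58% lower, and 53.2% and 6.7%. Counts of single lists under TPM are to be read beside these shares. At the deposited scaling the shares of all genes were 18.6% higher and 19.9% lower in DOX, and 31.4% and 20.1% in D_MgHCF against DOX. Without D_MgHCF replicate 3, 23 were higher and 36 lower than in DOX, beside 38.0% and 21.2% of all genes. For D_DXZ against DOX none was called, as for all genes.

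The mitochondrial iron and iron-sulfur list had 14 of 25 genes higher and 5 lower in DOX, and 5 higher and 14 lower in D_MgHCF against DOX; under TPM these were 1 and 15, and 13 and 6, and without D_MgHCF replicate 3 the latter were 7 and 13. Cisd1, an iron-sulfur protein of the outer mitochondrial membrane, had 41.1, 42.9 and 42.5 FPKM in Unt, 92.1, 131 and 115 in DOX and 41.5, 32.3 and 32.6 in D_MgHCF. DOX stood apart from both other groups (adjusted p = 3.1e-05 and 1.06e-05), although under TPM its log2 fold change against Unt was 0.04 (adjusted p = 0.808). Nubp2, a cytosolic iron-sulfur assembly factor, was higher in DOX and again in D_MgHCF at the deposited scaling: its mean was 20.6 ± 1.57 in Unt, 54.5 ± 0.24 in DOX and 116 ± 37.0 in D_MgHCF (SD, n = 3), with an adjusted p of 0.00219 between the last groups; under TPM the log2 fold change was 0.04 in DOX (adjusted p = 0.943) and 2.22 in D_MgHCF against DOX (adjusted p = 5.44e-06). Glrx5, a mitochondrial glutaredoxin that passes on clusters, was 2.62 times Unt in DOX (adjusted p = 0.000281), with a log2 fold change of 0.03 under TPM.

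Of 16 other uptake and reduction genes, 6 were higher and 4 lower in DOX, and under TPM 0 and 5. Steap1, of the metalloreductase family, fell from 32.7, 35.6 and 38.1 to 5.55, 5.38 and 6.53 FPKM (log2 fold change −2.42, adjusted p = 4.21e-05) and was also lower than Unt in D_MgHCF (log2 fold change −1.89, adjusted p = 0.000401). Slc39a14, the ZIP14 importer of non-transferrin iron, fell in DOX (log2 fold change −1.33, adjusted p = 0.00287). In D_MgHCF it had 2.72, 3.40 and 8.13 FPKM against 3.09, 2.15 and 2.15 in DOX, so that replicate 3 alone reached the Unt level (adjusted p against DOX = 0.0836); without it the log2 fold change was 0.23 against DOX (adjusted p = 0.187) and −1.09 against Unt (adjusted p = 0.000177). Snx3, a sorting nexin that recycles the transferrin receptor, and Lrp1, the receptor for heme bound to hemopexin, rose in DOX by log2 fold changes of 0.95 and 1.19 (adjusted p = 0.000123 and 0.00108) and fell in D_MgHCF against DOX by 1.34 and 1.59 (adjusted p = 1.5e-05 and 0.000146). The DOX values turned to −0.40 and −0.16 under TPM and −0.58 and −0.18 under quantile normalization, where Snx3 was called lower (adjusted p = 0.0115). The D_MgHCF calls of both against DOX were lost under these scalings, with −0.14 and −0.39 under TPM.

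Of 9 other storage genes, 5 were higher and 3 lower in DOX, and 1 was higher and 5 lower in D_MgHCF against DOX; under TPM these were 0 and 7, and 5 and 1, and without D_MgHCF replicate 3 the latter were 0 and 6. The iron chaperones that load ferritin were split in DOX: Pcbp2 rose (log2 fold change 1.03, adjusted p = 5.49e-05) and Pcbp1 fell (log2 fold change −1.16, adjusted p = 0.00615), but Pcbp2 was called lower under TPM (−0.32) and quantile normalization (−0.46). Pcbp1 had 45.5, 58.9 and 115 FPKM in D_MgHCF, overlapping DOX (log2 fold change −0.28, adjusted p = 0.414; −0.66 and 0.00496 without replicate 3; 0.92 and 0.0437 under TPM). Glrx3, a cytosolic iron-sulfur glutaredoxin, was 2.63 times Unt in DOX (log2 fold change 0.02 under TPM) and had a mean of 20.7 ± 5.15 FPKM in D_MgHCF beside 21.2 ± 0.33 in Unt.

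In the list of IRP regulation, IRE-bearing and transcript-decay genes, 5 of 11 were higher and 3 lower in DOX (2 and 6 under TPM). Skp1a and Rbx1, the partners of Fbxl5 in its ubiquitin ligase, rose in DOX while Fbxl5 fell, with log2 fold changes of 2.29 and 1.44 (adjusted p = 1.09e-05 and 9.74e-05; 0.93 and 0.12 under TPM, where Rbx1 was not called). Of the export and hepcidin list, 2 of 8 genes were higher and 0 lower in DOX, and under TPM 0 and 2. Cp, ceruloplasmin, the ferroxidase that works with ferroportin, had 11.2, 9.56 and 8.48 FPKM in Unt and 35.2, 40.8 and 45.9 in DOX, opposite in direction to Slc40a1 (log2 fold change 1.95, adjusted p = 0.00118; 0.66 and 0.0931 under TPM). Neo1, a co-receptor of the hepcidin pathway, was higher in DOX at the deposited scaling (log2 fold change 0.50, adjusted p = 0.0346) and lower under TPM (−0.80, adjusted p = 0.0107). Furin, a protease that processes its ligands, had a log2 fold change of 0.17 (adjusted p = 0.302), and −1.06 under TPM (adjusted p = 0.000335).

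The heme list was the one with most genes higher than Unt in D_MgHCF, 12 of 19 with 2 lower, and 10 to 12 higher under all 5 scalings; in DOX it had 10 higher and 2 lower, and 0 and 13 under TPM. Without D_MgHCF replicate 3 the count against Unt was again 12 higher and 2 lower. The 6 erythroid markers, genes of a lineage with high heme synthesis, moved with D_MgHCF too: they summed to 0.236 to 0.549 FPKM in Unt, at most 1.22 in DOX, at most 1.05 in D_DXZ and 1.96 to 20.3 in D_MgHCF, through Klf1 at 19.3, 13.5 and 1.39, and their part in the heme list was not tested. Pgrmc1, a heme-binding membrane protein, was 3.60 times Unt in DOX (log2 fold change 0.47 under TPM, adjusted p = 0.126) and 3.64 times in D_MgHCF, where replicate 3 stood at 90.3 FPKM beside 206 and 217. Slc48a1, a heme transporter, rose in DOX and in D_MgHCF (log2 fold changes 1.14 and 0.90, adjusted p = 0.00208 and 0.0111). Its D_MgHCF values were 25.0, 24.8 and 50.1 FPKM, and without replicate 3 the log2 fold change there was 0.57 (adjusted p = 0.00156), and in DOX it turned to −0.17 under TPM (adjusted p = 0.735). Cpox, an enzyme late in heme synthesis, was higher in DOX at the deposited scaling (log2 fold change 0.43, adjusted p = 0.0304), lower under TPM (−0.91, adjusted p = 0.00139), and below Unt in D_MgHCF (log2 fold change −0.51, adjusted p = 0.0160).

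**Figure D5:**
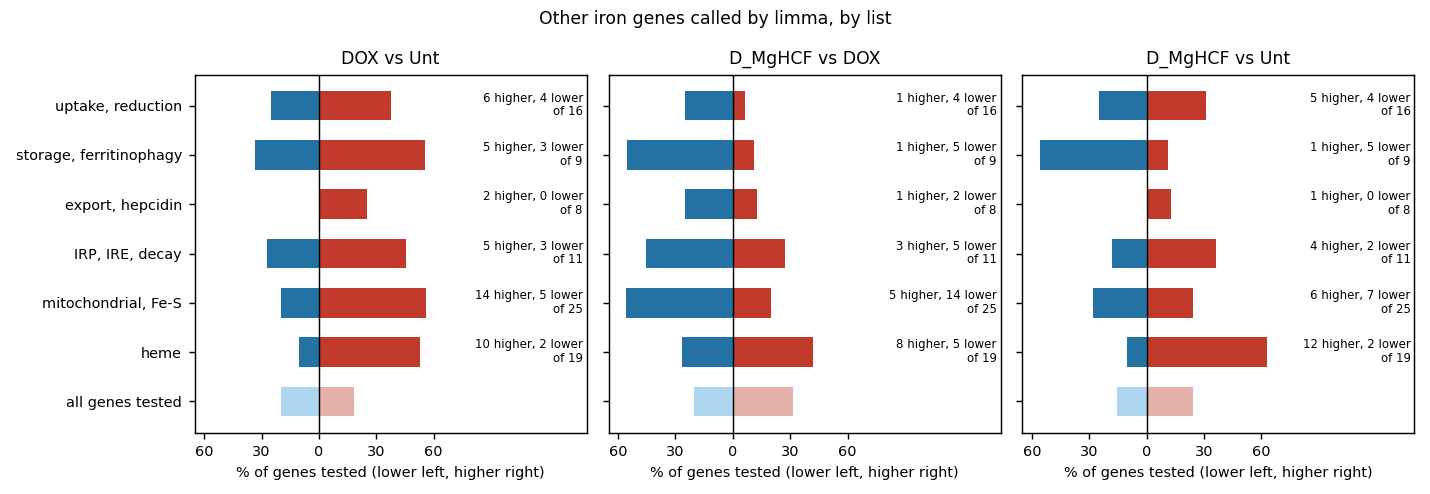
Share of the tested genes of each list of other iron genes called higher (right, red) or lower (left, blue) by limma at the deposited scaling in 3 comparisons, with all genes tested as the bottom bar. The heme list has 12 of 19 genes higher than Unt in D_MgHCF, and the mitochondrial list has 14 of 25 genes higher for DOX against Unt, and as many lower for D_MgHCF against DOX; the directions of the mitochondrial list turn under TPM and summed reads.

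The genes whose profile over the 12 libraries was most like that of a member were looked up among 11514 or 11515 expressed genes, as a description that largely reflects the 4 group means. For Tfrc they were Pcna, the replication clamp (Pearson r = 0.9912), Pole4, a subunit of a DNA polymerase (r = 0.9912), and Bend6 (r = 0.9885). For Fth1 they were P4hb, a protein disulfide isomerase (r = 0.9994), Cox4i1, a subunit of cytochrome c oxidase (r = 0.9984), and Bcap31, a membrane protein of the endoplasmic reticulum (r = 0.9982). Fth1 had 980 genes with r over 0.95 and Tfrc 328, whereas Slc40a1 had 8, led by Mfap1a (r = 0.971), Prkaa2 (r = 0.9708) and Usp25 (r = 0.9594). Pcna had group means of 113 FPKM in Unt, 291 in DOX, 262 in D_DXZ and 106 in D_MgHCF.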

How the data were processed

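Total RNA was extracted with TRIzol and poly(A) RNA was made into NEBNext libraries for paired-end sequencing. The submitters' processing notes name HISAT2 2.0.5 and the GRCm38 (mm10) build; the counter, its strand setting and the annotation release are not given in the sources used here. The authors deposited FPKM values per gene and library, which carry a median-ratio library scaling. FPKM times gene length was a whole multiple of 1 step in each library (within 0.1 of a read for 100% of values), which gave the reads on genes, 16626514 to 19365119 per library.

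Log2(FPKM + 1) of the 25044 genes above 0 in at least 3 libraries was fitted with limma 3.58.1 (R 4.3.3; 12 libraries in 1 fit, group means, trend), and p-values were adjusted by Benjamini-Hochberg over all genes tested, with a call under 0.05. This scale makes the changes of low genes smaller. Voom on recovered reads, quantile normalization, TPM and, chosen after seeing the data, summed reads were alternative scalings; another pseudocount, filters, call rules, fits of 2 groups, a replicate block and each library left out were also run. List counts and named list genes under other scalings and without D_MgHCF replicate 3 were chosen after seeing the data.

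The members and lists were chosen with earlier results of these data known. Named genes are the members, the 3 genes of highest mean FPKM in each list with Slc39a14, and the 3 genes most correlated with Tfrc, Fth1 and Slc40a1. A gene that this rule names is not reported here. Copies were searched with BLAST 2.17.0 (Python 3.11.15). Western blots, staining and animal experiments were not analysed here.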

Additional observations from a re-analysis of the deposited data

How the results depend on the processing

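The count of members called moved by more than 1.5 times in these settings: with a 2-fold minimum beside the adjusted p, 5 for D_DXZ against Unt, 1 for D_MgHCF against Unt, 5 for D_MgHCF against DOX and 5 for D_MgHCF against D_DXZ; with an unadjusted p, 6 for D_MgHCF against Unt and 2 for D_DXZ against DOX; with TPM and with summed reads, 5 for D_MgHCF against Unt; and with fits of the 2 groups or quantile normalization, 5 for D_MgHCF against D_DXZ. Leaving out 1 library at a time gave 9 to 9 members for DOX against Unt, 8 to 9 for D_DXZ against Unt, 2 to 6 for D_MgHCF against Unt (6 without D_MgHCF replicate 3), 0 to 0 for D_DXZ against DOX, 7 to 9 for D_MgHCF against DOX and 6 to 8 for D_MgHCF against D_DXZ. The log2 ratio Ncoa4/Fth1 for D_DXZ against DOX ranged from −0.12 to 0.01 without 1 library each, and turned sign without DOX replicate 1.

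Of 1254 single-member values under alternatives, 1168 kept their direction and side of the threshold, 53 lost the call, 26 gained it and 7 turned sign, and 13 values called in neither setting changed sign. Those that turned were Aco1 and Ncoa4 under TPM for DOX (−0.13 and −0.26) and D_DXZ (−0.23 and −0.38) against Unt, Tfrc for D_MgHCF against Unt without D_MgHCF replicate 3 (0.68, in a range from −0.87 over the libraries left out), and Fth1 under quantile normalization for D_MgHCF against DOX (0.13) and D_DXZ (0.10); apart from the library left out, the cause was not tested.

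Correlations of deviations between same-numbered libraries ranged from −0.314 to 0.306 without a common sign, and the numbers were not taken as pairs. Between DOX and D_DXZ they were 0.306, 0.033 and 0.22. Differently numbered libraries were not compared in this way. A replicate block left 9, 8, 3, 0, 8 and 8 members called in the 6 comparisons, losing Fbxl5 for D_MgHCF against DOX (adjusted p = 0.0776), and gave the same ratio differences, such as 4.21 for Tfrc/Slc40a1 in DOX. Depth limits Slc40a1 alone among the members, at 2 to 72 reads per library.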
